A study of Mus musculus with 8 samples.

Results

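Imprinted genes were examined by locus in mouse embryonic stem cells (mESCs) that lacked SETDB1, were treated with the G9a/GLP inhibitor UNC0642, or both. The genes were taken from a list of 46 imprinted genes, all of which were present among the 24062 genes of the count files. They belong to 20 imprinted loci, and 24 of them are known to be expressed from the paternal and 17 from the maternal allele, while the other genes depend on tissue or transcript. Of the 46, 36 had enough counts to be tested (15313 genes were tested in all). Imprinted RNAs of several loci were present in all conditions, and few changed. Rian and Asb4 rose in both conditions that received 4-OHT. Meg3, Kcnq1ot1 and Impact rose and Phlda2 fell there once replicates were treated as pairs. Several of these calls hung on single libraries. Those of Phlda2 and Impact in Setdb1 KO mESCs were lost when almost any library was left out. When replicates were not paired, those of Rian and Asb4 were lost without either WT library.

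Poly(A) RNA was sequenced from 8 libraries, 2 in each of 4 conditions, to ask how the H3K9 methyltransferases SETDB1 and G9a/GLP act on transcription. All libraries came from the same line, named #33-6 Setdb1 conditional KO mES, grown without feeder cells on gelatin with FCS, KSR and LIF. The cells called WT therefore carry the conditional Setdb1 allele too and were given no treatment. UNC0642-treated mESCs received 2 µM of the inhibitor for 3 days (the sample label spells it UNC642). Setdb1 KO mESCs received 800 nM 4-OHT for 5 days, which triggers deletion of Setdb1. UNC0642-treated Setdb1 KO mESCs, called combined-treatment mESCs here, were labelled as given 800 nM 4-OHT for 2 days and then 2 µM UNC0642 for 3 days. The protocol text of the series gives 5 days of 4-OHT for the conditional KO line and does not name the combined treatment, so the sources differ on how long these cells were exposed to 4-OHT. No condition received 4-OHT without a conditional allele, so the drug and the deletion cannot be told apart here. With a single line, p-values measure the spread between libraries of that line.

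At an imprinted locus, a differentially methylated region set in the egg or the sperm keeps 1 parental copy of each gene silent and the other active. After fertilization the methylated copy is protected by KRAB zinc finger proteins such as ZFP57 and ZFP445, which bring in TRIM28, SETDB1, H3K9me3 and DNA methyltransferases. Many imprinted domains hold a long noncoding RNA whose transcription from 1 parental chromosome goes with silencing of neighbouring protein-coding genes. Embryonic stem cells are known for losing or gaining methylation at some of these regions in culture. The libraries were not resolved by allele, so every value is the sum of both parental copies.

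Libraries held 11702590 to 26807807 counts, at which 3 counts, taken as the limit of detection, equal 0.108 to 0.311 CPM (counts scaled to library size by TMM normalization). This limit covers counting error only. Setdb1 was at 170 and 127 CPM in WT mESCs, 131 and 86.4 with UNC0642 alone, 47.3 and 51.0 in Setdb1 KO mESCs, and the combined-treatment libraries were at 61.1 and 34.1. The 8 pluripotency markers summed to 2678 to 5426 CPM per library, and all 8 were detected in every condition. The 8 primitive endoderm markers summed to 28.9 and 113.7 CPM in WT mESCs and to 103.6 and 132.7 with UNC0642 alone. They summed to 18.0 and 38.4 CPM in Setdb1 KO and 32.0 and 32.6 in combined-treatment mESCs. Lama1 alone was at 17.0 and 62.65 CPM in WT mESCs. Over WT mESCs, all 8 log2 fold changes were above 0 with UNC0642 alone, 1 was in Setdb1 KO and 2 were in combined-treatment mESCs. The 8 fibroblast markers summed to 6.61 to 11.8 CPM in all replicates 1 and to 18.0 to 24.05 CPM in all replicates 2. In bulk RNA, fewer cells that express a gene and less RNA per cell cannot be told apart.

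**Figure D1:**
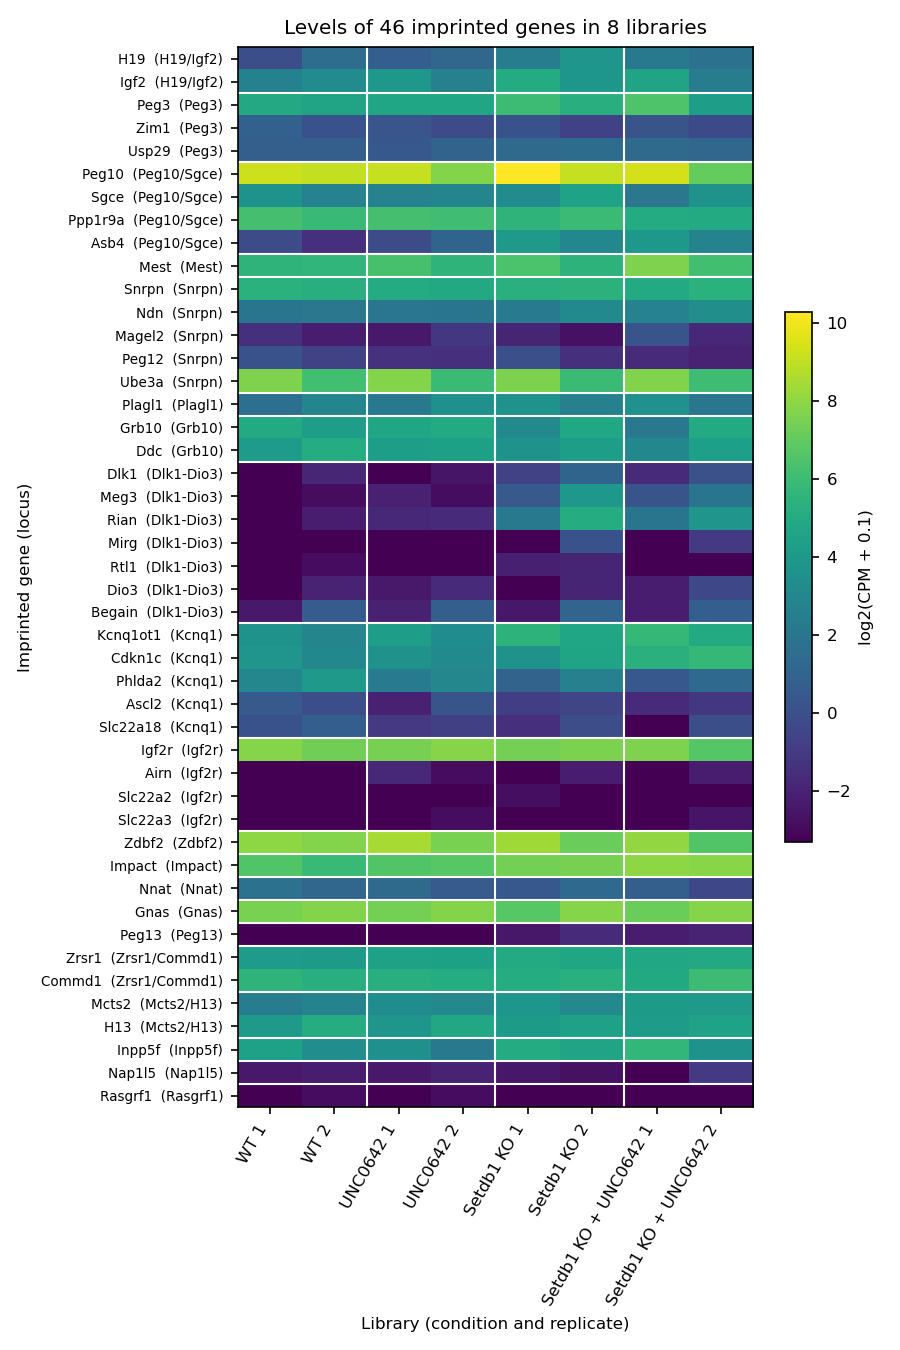
Level of the 46 imprinted genes (rows, grouped by locus) in the 8 libraries (columns, condition and replicate), as log2(CPM + 0.1). Peg10, Ube3a, Igf2r, Zdbf2, Impact and Gnas are bright in all columns, the Dlk1-Dio3 noncoding RNAs Meg3 and Rian are dark in the 4 libraries without 4-OHT and lighter in the 4 with it, and Begain is lighter in replicate 2 of each condition.

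Across the imprinted genes, an edgeR quasi-likelihood test over 16245 genes and repeat subfamilies called few changes at an adjusted p under 0.05. Setdb1 KO mESCs had 2 imprinted genes higher than WT mESCs, Asb4 and Rian, and 0 lower, where 1.11% of all features were higher and 0.00616% lower. The same genes were the 2 called in combined-treatment mESCs (3.60% of all features higher, 0.505% lower). Replicates with the same number deviated together in all conditions, and with the replicate number as a block more genes were called. In Setdb1 KO mESCs, 5 imprinted genes were then higher (Asb4, Impact, Kcnq1ot1, Meg3 and Rian; 3.80% of all features) and 1 was lower (Phlda2; 0.492%). In combined-treatment mESCs, 8 were higher (the same 5 genes with Cdkn1c, Mcts2 and Mest; 9.98% of all features) and 2 were lower (Phlda2 and Ppp1r9a; 7.19%). The 6 imprinted genes called with the block in Setdb1 KO mESCs were 16.67% of the 36 tested, and the 10 in combined-treatment mESCs were 27.78%. Both comparisons use the same WT libraries.

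**Figure D2:**
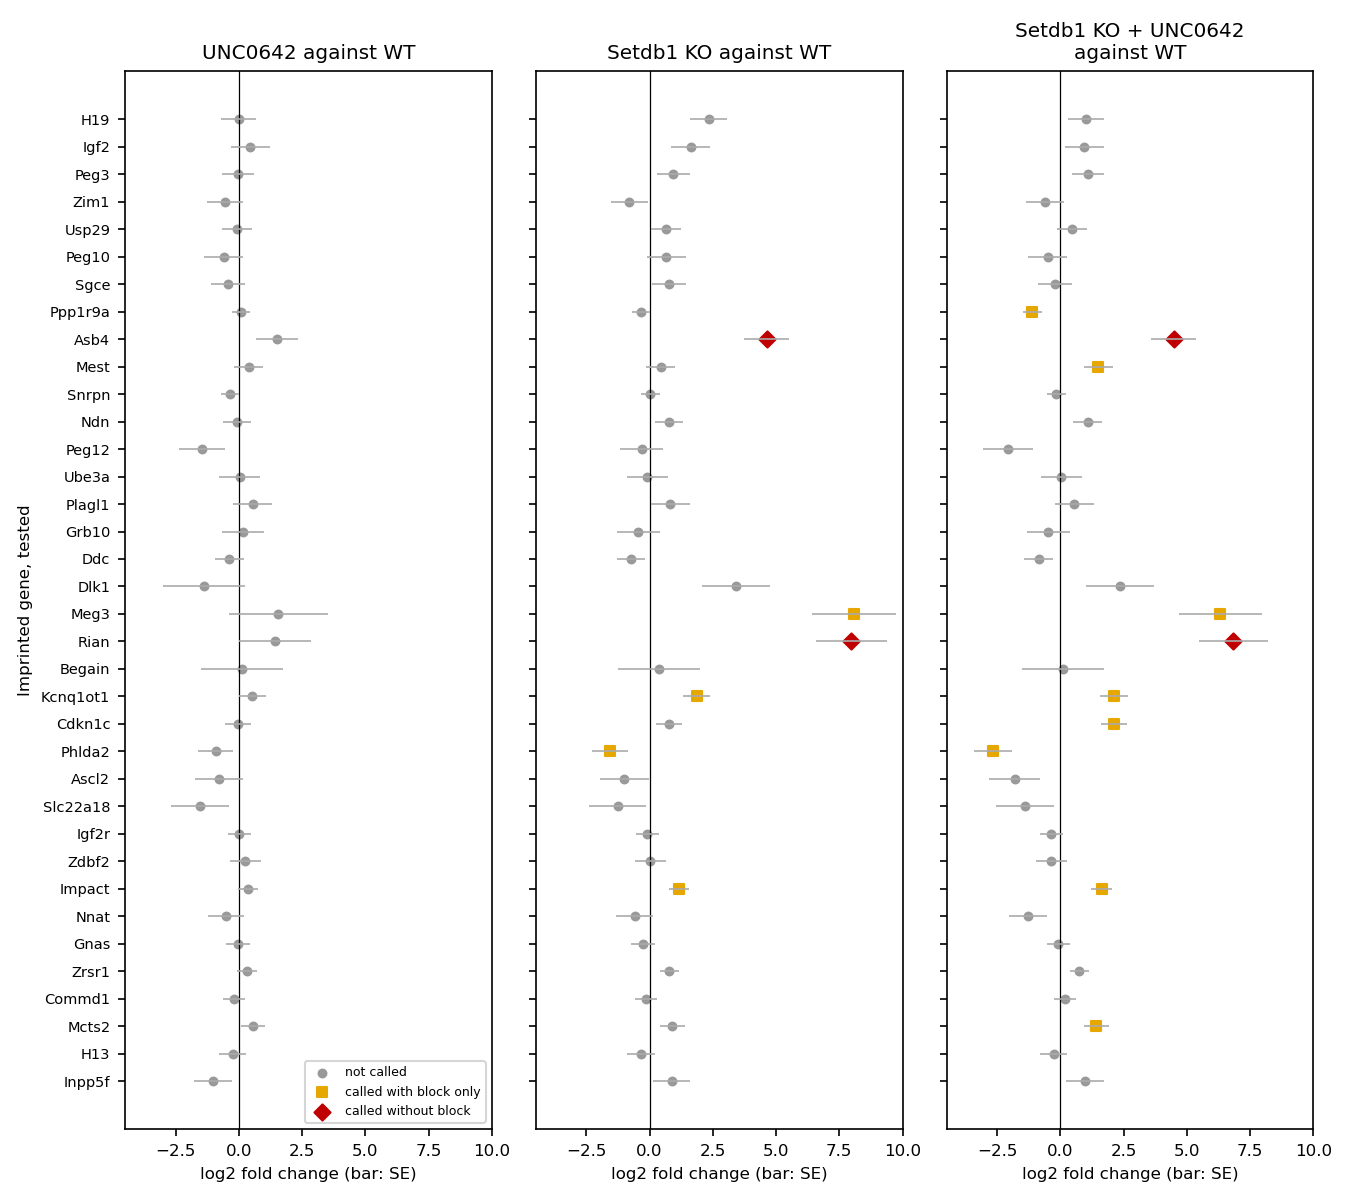
Log2 fold change over WT mESCs (x axis, bars are 1 SE from the fit without the block) of the 36 imprinted genes tested (y axis) for UNC0642 alone, Setdb1 KO and the combined treatment. Diamonds mark genes called without the replicate block and squares those called with it only; Rian and Asb4 carry diamonds in both panels with 4-OHT, and the UNC0642 panel holds grey points only.

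Promoter windows, 250 bases before to 50 after an annotated start, were taken from RefSeq (GRCm38.p6) for 39 of the 46 genes. Cdkn1c, H19, Peg10, Sgce, Peg13, Rtl1 and Impact had no entry. The windows of 7 genes that moved are printed from 5′ to 3′ in the direction of transcription, because they show how unlike the starts of these genes are: Meg3 and Rian follow each other in 1 cluster, Asb4 was called in both fits, Kcnq1ot1, Mest and Mcts2 start at maternally methylated regions, and Phlda2 went the other way. Where a gene had several windows, the one with the most CG pairs is shown. Capitals mark TGCCGC or its reverse complement GCGGCA, the core of the motif that ZFP57 is known to bind when methylated, searched on both strands.
Meg3 (chr12:109540746-109541045, plus strand): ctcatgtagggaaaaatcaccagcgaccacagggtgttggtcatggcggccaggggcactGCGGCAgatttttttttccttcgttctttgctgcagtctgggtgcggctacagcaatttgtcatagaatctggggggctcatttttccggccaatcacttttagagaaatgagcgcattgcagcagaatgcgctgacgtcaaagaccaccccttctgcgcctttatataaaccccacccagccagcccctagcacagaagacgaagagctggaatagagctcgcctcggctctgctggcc
Rian (chr12:109603695-109603994, plus strand): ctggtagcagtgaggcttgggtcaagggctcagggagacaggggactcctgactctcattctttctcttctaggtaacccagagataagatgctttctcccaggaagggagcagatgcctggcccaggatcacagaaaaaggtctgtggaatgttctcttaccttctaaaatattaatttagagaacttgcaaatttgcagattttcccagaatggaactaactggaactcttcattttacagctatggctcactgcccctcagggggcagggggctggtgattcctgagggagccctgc
Asb4 (chr6:5390160-5390459, plus strand): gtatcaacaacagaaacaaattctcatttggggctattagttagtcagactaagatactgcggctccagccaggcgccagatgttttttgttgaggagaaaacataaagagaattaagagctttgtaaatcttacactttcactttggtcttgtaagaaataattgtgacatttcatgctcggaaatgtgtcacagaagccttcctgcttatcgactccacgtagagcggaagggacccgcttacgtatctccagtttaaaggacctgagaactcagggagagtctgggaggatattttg
Kcnq1ot1 (chr7:143296498-143296797, minus strand): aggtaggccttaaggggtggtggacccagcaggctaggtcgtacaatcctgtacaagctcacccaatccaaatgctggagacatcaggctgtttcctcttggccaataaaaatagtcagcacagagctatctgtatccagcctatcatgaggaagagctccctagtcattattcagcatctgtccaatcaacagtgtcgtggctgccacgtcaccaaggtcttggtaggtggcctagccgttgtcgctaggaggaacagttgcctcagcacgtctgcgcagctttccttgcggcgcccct
Mest (chr6:30737800-30738099, plus strand): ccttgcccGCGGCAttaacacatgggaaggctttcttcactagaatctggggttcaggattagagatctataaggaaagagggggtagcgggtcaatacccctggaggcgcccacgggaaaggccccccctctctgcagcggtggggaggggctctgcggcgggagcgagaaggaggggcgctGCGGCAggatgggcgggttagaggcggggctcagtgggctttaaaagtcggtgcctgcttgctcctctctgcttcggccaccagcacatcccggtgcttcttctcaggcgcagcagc
Mcts2 (chr2:152686898-152687197, plus strand): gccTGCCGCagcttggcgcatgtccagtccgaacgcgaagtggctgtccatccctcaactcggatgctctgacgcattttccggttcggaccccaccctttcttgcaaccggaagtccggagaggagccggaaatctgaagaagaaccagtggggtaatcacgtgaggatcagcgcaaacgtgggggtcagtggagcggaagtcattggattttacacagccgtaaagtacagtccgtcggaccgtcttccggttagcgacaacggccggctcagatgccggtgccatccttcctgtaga
Phlda2 (chr7:143502475-143502774, minus strand): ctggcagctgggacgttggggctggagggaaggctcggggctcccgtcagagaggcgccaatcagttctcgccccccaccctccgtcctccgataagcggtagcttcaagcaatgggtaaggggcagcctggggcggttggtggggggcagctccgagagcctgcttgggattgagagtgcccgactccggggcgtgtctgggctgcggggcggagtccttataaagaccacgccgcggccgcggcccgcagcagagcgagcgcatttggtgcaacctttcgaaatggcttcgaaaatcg
The Meg3 window held 1 motif and 13 CG pairs, whereas the Rian window held 0 of both. The Mest window held 2 motifs with 17 CG pairs and the Mcts2 window 1 motif with 25 CG pairs. The windows of Kcnq1ot1 (9 CG pairs), Asb4 (8 CG pairs) and Phlda2 (26 CG pairs) held no motif, nor did a further Asb4 window (6 CG pairs) and both windows of Ppp1r9a (48 and 10 CG pairs), which are not printed, which says only that these letters are not within these windows. Of the 61 windows of imprinted genes, 14 held the motif (22.95%), beside 11.61% of 32851 windows of all genes, and their median number of CG pairs was 15 beside 7. Counted by gene, 13 of 39 imprinted genes (33.33%) and 13.05% of 27025 genes had it in at least 1 window. A match is a description of letters and not evidence of binding.

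The largest differences lay in the Dlk1-Dio3 cluster on chromosome 12, whose maternal copy makes the noncoding RNAs Meg3, Rian and Mirg and whose paternal copy makes the proteins DLK1, RTL1 and DIO3. Rian (chr12:109603940-109661716, GRCm38, plus strand), the host RNA of a tandem array of small nucleolar RNAs, had 0 and 3 counts in WT mESCs and 4 and 6 counts with UNC0642 alone. It had 104 and 626 counts in Setdb1 KO mESCs, and the combined-treatment libraries were at 37 and 367 counts. Every library with 4-OHT was above every library without it, and replicate 2 was above replicate 1 in both KO conditions. Against the 3 counts in WT mESCs, Rian was 228-fold higher in Setdb1 KO mESCs (95% counting interval 77.8 to 1109) and 143-fold higher in combined-treatment mESCs (48.7 to 698). Its fitted log2 fold change was 7.98 (SE 1.4, adjusted p = 0.0330, with the block 0.00125) and 6.83 (SE 1.36, adjusted p = 0.0259, with the block 0.00116). With the block, both calls stayed with each of the 8 libraries left out in turn. Without it, they were lost without either WT library (adjusted p between 0.152 and 0.278), the call in Setdb1 KO mESCs also without Setdb1 KO replicate 2 (0.0619) and the other without combined-treatment replicate 2 (0.0796). Both were lost as well when libraries were scaled by total counts (0.0878 and 0.0655). The counting intervals leave out the spread between replicates: over the alternatives tried, the log2 fold change ran from 5.81 to 11.57 in Setdb1 KO and from 5.63 to 10.44 in combined-treatment mESCs.

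Meg3 (chr12:109541001-109571726, plus strand), the long noncoding RNA at the start of this maternal transcription, had 0 and 1 counts in WT mESCs and 3 and 1 counts with UNC0642 alone. It had 31 and 280 counts in Setdb1 KO mESCs, and the combined-treatment libraries were at 10 and 102 counts. The groups with and without 4-OHT did not overlap. Meg3 was 292-fold (counting interval 52.0 to 11560) and 119-fold (21.0 to 4749) above the 1 count in WT mESCs. Its adjusted p was 0.0635 and 0.0670, and with the block 0.00985 and 0.0131. The block calls were lost without WT replicate 2 and without replicate 2 of the KO condition compared (adjusted p up to 0.0755 and 0.0969). Over the alternatives tried, its log2 fold change ran from 5.41 to 10.35 in Setdb1 KO and from 4.42 to 8.61 in combined-treatment mESCs. Mirg, the host RNA of microRNAs further downstream, had 0 counts in all 4 libraries without 4-OHT and in replicate 1 of both KO conditions. It had 18 counts in Setdb1 KO replicate 2 and 11 counts in combined-treatment replicate 2. With 3 counts over the 2 WT libraries as the limit, the ratios over WT mESCs were at least 5.63 and at least 3.90. These ratios leave out counting error in the 18 and 11 counts. Of 58 microRNA hairpin genes annotated in the interval, 56 were in the files and summed to 0 to 3 counts per library; poly(A) libraries are not made to capture such short RNAs. The Meg3, Rian and Mirg exons overlap small RNA genes on the same strand, so counting could divide reads among them.

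Among the paternally expressed genes of the cluster, Dlk1 (chr12:109452823-109463336, plus strand), a transmembrane protein related to Notch ligands, had 0 and 5 counts in WT mESCs and 0 and 2 counts with UNC0642 alone. It had 13 and 36 counts in Setdb1 KO mESCs, and the combined-treatment libraries were at 2 and 25 counts. As CPM, Setdb1 KO mESCs (0.550 and 1.98) lay above WT mESCs (0 and 0.180). In combined-treatment mESCs replicate 2 did so (0.919), while the 2 counts of replicate 1 are under the limit of 3 counts (0.311 CPM in that library). Neither difference passed (log2 fold change 3.42, SE 1.34, adjusted p = 0.448, with the block 0.0583; and 2.37, SE 1.34, adjusted p = 0.407, with the block 0.0999). Rtl1, a retrotransposon-derived gene, had 0 to 3 counts in every library, and Dio3, an enzyme that inactivates thyroid hormone, had 0 to 6 counts except for 18 in combined-treatment replicate 2. Begain, upstream of Dlk1, had 1 to 3 counts in replicate 1 and 38 to 46 counts in replicate 2 of every condition. Its level thus moved with the replicate and not with the treatment (log2 fold changes over WT mESCs of 0.13, 0.36 and 0.09, each with SE 1.61 or 1.62). The 8 fibroblast markers did not move together. Col1a1, Col1a2 and Col3a1 divided by replicate like Begain, with 0 to 36 counts in replicate 1 and 45 to 266 counts in replicate 2. Lum, a proteoglycan, had 0 counts in both WT libraries, 0 and 1 with UNC0642 alone, 10 and 0 in Setdb1 KO and 28 and 39 in combined-treatment mESCs, where it rose over WT mESCs with the block (edgeR adjusted p = 0.0198, without it 0.0654). Postn (0 and 1, 1 and 5, 6 and 4, and 10 and 10 counts in the same sequence of conditions) and Dcn (0 to 4 counts) were too low to test and had their highest counts in combined-treatment mESCs. Pdgfrb fell there with the block, from 67 and 133 counts in WT mESCs to 11 and 15 (adjusted p = 0.0122), and Thy1 had 23 to 70 counts. The part of these markers in the Dlk1-Dio3 values was not tested.

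**Figure D3:**
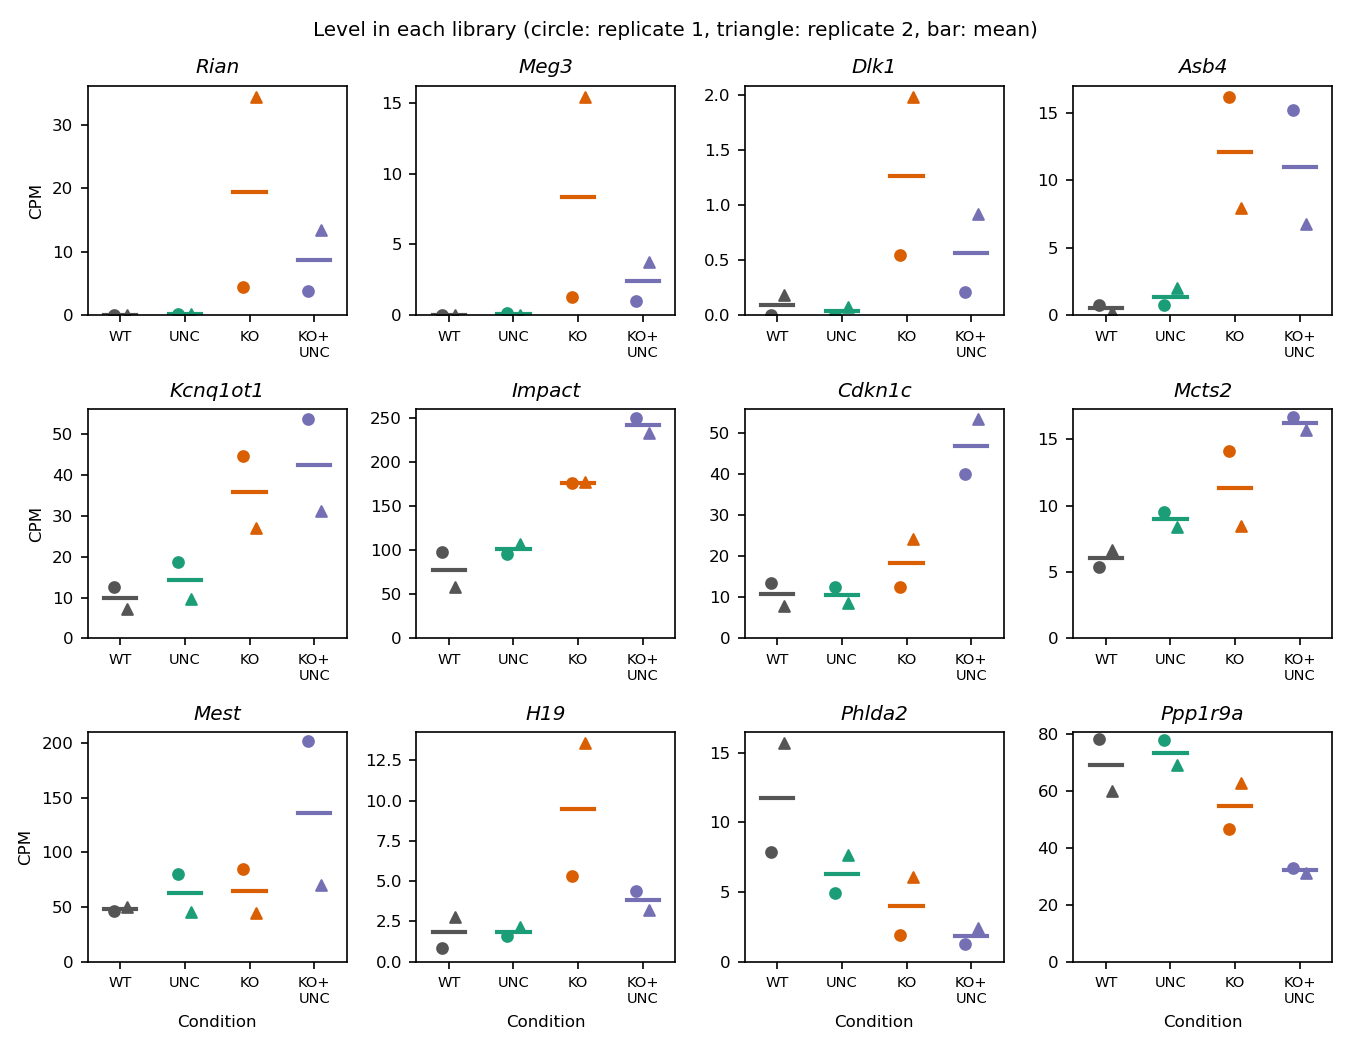
Level in CPM (linear y axis from 0) of 12 imprinted genes in WT, UNC0642-treated (UNC), Setdb1 KO (KO) and combined-treatment (KO+UNC) mESCs. Circles are replicate 1, triangles replicate 2 and bars the mean of both; Rian and Meg3 sit near 0 without 4-OHT and their replicate 2 lies highest with it, Impact and Cdkn1c are highest in KO+UNC, and Phlda2 and Ppp1r9a are lowest there.

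At the Peg10/Sgce locus on chromosome 6, the distal maternally expressed gene Asb4 rose, and the genes at the methylated region, Peg10 and Sgce, were not called. Asb4 (chr6:5383386-5433022, plus strand), a substrate adaptor of a ubiquitin ligase, was at 0.784 and 0.253 CPM in WT mESCs and at 0.752 and 1.98 CPM with UNC0642 alone. It was at 16.2 and 7.92 CPM in Setdb1 KO mESCs, and the combined-treatment libraries were at 15.2 and 6.73 CPM. All 4 libraries with 4-OHT were above all 4 without it, and here replicate 1 was the higher one in both KO conditions. Setdb1 KO mESCs had a log2 fold change of 4.63 (SE 0.89, adjusted p = 0.0480, with the block 0.00976) and combined-treatment mESCs one of 4.48 (SE 0.89, adjusted p = 0.0254, with the block 0.00577). With the block, both calls stayed with each library left out in turn. Without it, the call in Setdb1 KO mESCs was close to the threshold and was lost without WT replicate 1 or 2 and without 3 other libraries, both Setdb1 KO replicates and combined-treatment replicate 2 (adjusted p between 0.0512 and 0.414). It was also lost with RLE normalization (0.0511), with genes only (0.0583) and with scaling by total counts (0.0867). The call in combined-treatment mESCs was lost without WT replicate 1 or 2 and without combined-treatment replicate 1 (between 0.0810 and 0.203).

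Calcr, the calcitonin receptor, lies in the same chromosomal domain and is not among the 46 genes. It stood at 0.978 ± 0.464 CPM (SD, n = 2 here and below) in WT mESCs, 12.4 ± 2.05 in Setdb1 KO mESCs and 9.97 ± 5.14 in combined-treatment mESCs, and rose in both (adjusted p = 0.0351 and 0.0232). Ppp1r9a (neurabin, an actin-binding partner of protein phosphatase 1) was at 78.3 and 59.9 CPM in WT mESCs, 77.9 and 69.0 with UNC0642 alone, 46.8 and 62.8 in Setdb1 KO mESCs, and the combined-treatment libraries were at 33.1 and 31.2. Only the last group lay below WT mESCs in both libraries, by -1.10 on the log2 scale (SE 0.38, adjusted p = 0.154, with the block 0.0249). That block call held in 3 of the 8 fits that left out a library, and was lost without WT replicate 1 and without either replicate of UNC0642-treated or combined-treatment mESCs (adjusted p up to 0.157). Peg10, a retrotransposon-derived gene needed in the placenta, had the highest level per kilobase of exon of all 46 genes in every condition (56.5 to 134 CPM per kb). Its libraries ranged from 132 to 1243 CPM, and its groups overlapped. Replicates lay close in WT mESCs (603 and 533 CPM). They lay further apart with UNC0642 alone (535 and 219), in Setdb1 KO (1243 and 542) and in combined-treatment mESCs (671 and 132). Sgce, which shares its promoter region with Peg10 and encodes epsilon-sarcoglycan, was at 9.34 ± 4.03 CPM in WT and 15.9 ± 9.30 in Setdb1 KO mESCs, with overlap.

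The Kcnq1 domain on chromosome 7 held changes in both directions. Kcnq1ot1 (chr7:143203458-143296549, minus strand), the paternally transcribed noncoding RNA that silences its neighbours on that chromosome, was at 12.5 and 7.25 CPM in WT mESCs and at 18.8 and 9.71 CPM with UNC0642 alone. It was at 44.5 and 26.9 CPM in Setdb1 KO mESCs, and the combined-treatment libraries were at 53.7 and 31.2 CPM. Both KO groups lay above both groups without 4-OHT, and replicate 1 was the higher in each condition. With the block it rose by 1.86 (SE 0.25, adjusted p = 0.00452) and 2.1 (SE 0.25, adjusted p = 0.00139) on the log2 scale, and both calls stayed with each library left out in turn. Without the block neither passed (adjusted p = 0.220 and 0.0704). Kcnq1ot1 lies in Kcnq1 on the opposite strand, and Kcnq1 itself had 0 to 13 counts per library.

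Phlda2 (chr7:143501545-143503150, minus strand), a maternally expressed gene that restrains placental growth, was at 7.84 and 15.7 CPM in WT mESCs and at 4.94 and 7.63 CPM with UNC0642 alone. It was at 1.91 and 6.05 CPM in Setdb1 KO mESCs, and the combined-treatment libraries were at 1.25 and 2.43 CPM. All 6 libraries with any treatment were below both WT libraries. With the block it fell by 1.67 (SE 0.38, adjusted p = 0.0491) and by 2.68 (SE 0.41, adjusted p = 0.00432) on the log2 scale, and without the block it did not pass (0.587 and 0.0886). The call in Setdb1 KO mESCs was lost whichever library was left out (adjusted p 0.0629 to 0.340), and the other was lost only without combined-treatment replicate 2 (0.0672). Cdkn1c (chr7:143458339-143461050, minus strand), the maternally expressed cell cycle inhibitor p57, moved the other way. It was at 13.6 and 7.94 CPM in WT mESCs, 12.5 and 8.60 with UNC0642 alone, 12.4 and 24.2 in Setdb1 KO mESCs, and the combined-treatment libraries were at 40.0 and 53.5. The combined condition alone stood apart from WT mESCs, by 2.13 on the log2 scale with the block (SE 0.44, adjusted p = 0.0149; without the block 0.0593), and this call was lost without its own replicate 2 (0.117). Ascl2, a trophoblast transcription factor, was at 1.09 ± 0.311 CPM in WT and 0.288 ± 0.113 in combined-treatment mESCs (adjusted p = 0.408). Slc22a18, a transporter, was at 1.27 ± 0.445 CPM in WT and 0.423 ± 0.598 in combined-treatment mESCs (adjusted p = 0.600).

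The paternally expressed genes Impact, Mcts2 and Mest had increases that edgeR called with the block and not in the main fit without it. Impact, a regulator of the amino acid starvation response, was at 97.8 and 58.7 CPM in WT mESCs and 96.2 and 108 with UNC0642 alone. It was at 176 and 177 CPM in Setdb1 KO mESCs, and the combined-treatment libraries were at 251 and 233 CPM, so the 4 libraries with 4-OHT were above the others. With the block it rose by 1.20 (SE 0.27, adjusted p = 0.0453) and 1.65 (SE 0.27, adjusted p = 0.00599) on the log2 scale, and without it neither passed (0.327 and 0.0594). In Setdb1 KO mESCs the call remained only in the fit without WT replicate 1 and was lost without any of the other 7 libraries (adjusted p up to 0.172). In combined-treatment mESCs it was lost without replicate 2 of that condition (0.0520).

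Mcts2, a retrogene within an intron of H13, was at 5.40 and 6.68 CPM in WT mESCs, 9.54 and 8.42 with UNC0642 alone, 14.1 and 8.47 in Setdb1 KO mESCs, and the combined-treatment libraries were at 16.7 and 15.7. The WT libraries were the lowest and those of the combined condition the highest (log2 fold change with the block 1.41, SE 0.35, adjusted p = 0.0278; without it 0.158). It held in 3 of 8 fits that left out a library and was lost without WT replicate 1 and without any library of the 2 conditions with UNC0642 (adjusted p up to 0.179). Mcts2 shares sequence with its parent gene, so the division of reads between them is uncertain. H13, the host gene and a signal peptide peptidase, was at 24.6 ± 12.8 CPM in WT and 20.6 ± 2.98 in combined-treatment mESCs. Mest, a hydrolase-like protein active in mesoderm, was at 46.1 and 49.7 CPM in WT mESCs, 80.0 and 45.4 with UNC0642 alone, 85.1 and 44.8 in Setdb1 KO mESCs, and the combined-treatment libraries were at 202 and 70.2. Both libraries of the combined condition were above WT mESCs but far from each other (log2 fold change with the block 1.29, SE 0.36, adjusted p = 0.0430; without it 0.204). The Mest call held in 2 of 8 such fits and was lost without 6 libraries, namely WT replicate 1, Setdb1 KO replicate 2 and all 4 with UNC0642 (adjusted p up to 0.208).

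At H19/Igf2, the noncoding RNA H19 and the growth factor gene Igf2 were higher in Setdb1 KO mESCs, but the spread between replicates was wide. H19 had 10 and 77 counts in WT mESCs, 34 and 59 with UNC0642 alone, 126 and 247 in Setdb1 KO mESCs, and the combined-treatment libraries were at 42 and 88. As CPM the Setdb1 KO libraries (5.33 and 13.6) were above all others (0.871 to 4.36). The difference of Setdb1 KO from WT mESCs did not pass in edgeR (log2 fold change 2.34, SE 0.74, adjusted p = 0.265, with the block 0.0529) and passed in DESeq2 on all 8 libraries. Igf2 was at 6.18 and 9.20 CPM in WT mESCs, 15.1 and 6.04 with UNC0642 alone, 32.5 and 14.9 in Setdb1 KO mESCs, and the combined-treatment libraries were at 24.8 and 5.29 (Setdb1 KO over WT: log2 fold change 1.62, SE 0.79, adjusted p = 0.654).

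The remaining loci gave no call in either comparison with WT mESCs. At Peg3, the zinc finger gene Peg3 was at 26.6 ± 3.55 CPM in WT and 50.8 ± 18.3 in Setdb1 KO mESCs (adjusted p = 0.884), Usp29 at 1.66 ± 0.00383 and 2.60 ± 0.140, and the maternally expressed Zim1 at 1.36 ± 0.543 and 0.762 ± 0.299. At the Snrpn locus, the splicing protein gene Snrpn differed little (40.0 ± 1.64 CPM in WT, 40.8 ± 1.94 in Setdb1 KO and 36.0 ± 6.54 in combined-treatment mESCs). Ndn (necdin) was at 3.97 ± 0.200, 6.79 ± 3.08 and 8.37 ± 2.88 CPM in these conditions, and Peg12 at 0.750 ± 0.295, 0.582 ± 0.434 and 0.177 ± 0.0428. Ube3a, a maternally expressed ubiquitin ligase in neurons, divided by replicate rather than by condition, with 191 to 214 CPM in replicate 1 and 60.8 to 71.8 CPM in replicate 2. Plagl1, a zinc finger gene, was at 5.31 ± 3.20 CPM in WT and 9.42 ± 4.76 in Setdb1 KO mESCs. Grb10, a growth factor receptor adaptor, ranged from 4.26 to 32.2 CPM with overlap, and its neighbour Ddc from 8.10 to 34.3 CPM.

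Genes with high levels in every library were Igf2r (the receptor that clears IGF2, 102 to 228 CPM), Gnas (the Gs alpha subunit, 107 to 228 CPM) and Zdbf2 (95.5 to 368 CPM), and none of their groups stood apart from WT mESCs. Zrsr1, a splicing factor retrogene inside Commd1, was at 17.1 ± 0.424 CPM in WT, 21.5 ± 0.902 with UNC0642 alone, 29.5 ± 4.01 in Setdb1 KO and 28.9 ± 1.12 in combined-treatment mESCs. Both KO groups lay above WT mESCs without passing (log2 fold changes 0.78 and 0.76, SE 0.39 each, adjusted p = 0.664 and 0.353, with the block 0.142 and 0.0699). Commd1, its host on the other strand, was at 41.5 ± 6.41 CPM in WT and 47.0 ± 22.7 in combined-treatment mESCs. Nnat (neuronatin), within Blcap, was at 2.76 ± 0.896 and 1.16 ± 0.706 CPM in these conditions (adjusted p = 0.428). Inpp5f, a phosphoinositide phosphatase, was at 21.7 and 10.1 CPM in WT mESCs, 11.2 and 4.39 with UNC0642 alone, 33.5 and 24.9 in Setdb1 KO mESCs, and the combined-treatment libraries were at 50.7 and 12.0, and was called only between the last and UNC0642-treated mESCs, as given further on.

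Of the 46 genes, 10 had too few counts for a test. Besides Mirg, Rtl1 and Dio3, these were Magel2 (1 to 10 counts per library), Nap1l5 (0 to 11), Airn (0 to 4), Peg13 (0 to 4), Slc22a3 (0 to 2), Slc22a2 (0 to 1) and Rasgrf1 (0 to 1). Airn, the noncoding RNA that represses Igf2r on the paternal copy, was thus near the limit of detection in every condition, as were the transporter genes Slc22a2 and Slc22a3 of its domain. Peg13, which lies in Trappc9, had 0 counts in the 4 libraries without 4-OHT, 2 and 4 in Setdb1 KO and 1 and 4 in combined-treatment mESCs. With 3 counts over the 2 WT libraries as the limit, the ratios over WT mESCs were at least 1.88 and at least 1.77. These ratios leave out counting error in the 6 and 5 counts of the KO conditions. Replicate 1 of both KO conditions, with 2 and 1 counts, was under the limit of 3 counts. The counting was run with default parameters, and the sources used here do not spell out whether reads of overlapping genes were assigned by strand.

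Grouped by parental allele, the tested paternally expressed genes lay mostly above WT mESCs in Setdb1 KO mESCs. Of 17 tested (of 24), 15 had a log2 fold change above 0 (88.24%, beside 48.43% of all features), with a median of 0.77 beside -0.02. Only Impact and Kcnq1ot1 among them were called, and only with the block. Of the 14 maternally expressed genes tested (of 17), 5 were above 0 (35.71%) with a median of -0.12, although Rian, Meg3 and Asb4 had the largest log2 fold changes of all. In combined-treatment mESCs, 11 of the 17 paternally expressed genes were above 0 (64.71%, beside 49.43%), with a median of 0.76, and 7 of the 14 maternally expressed genes, with a median of -0.11. Of 15 genes that start at a germline methylated region, 12 were tested, and 11 were above 0 in Setdb1 KO mESCs (median 0.78) and 8 in combined-treatment mESCs (median 0.65). All 15 are paternally expressed, so the 2 groupings share members. Counts and medians are given as a description, and no test was made of the groups. The parental allele is the one assigned to each gene and was not measured in these cells.

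**Figure D4:**
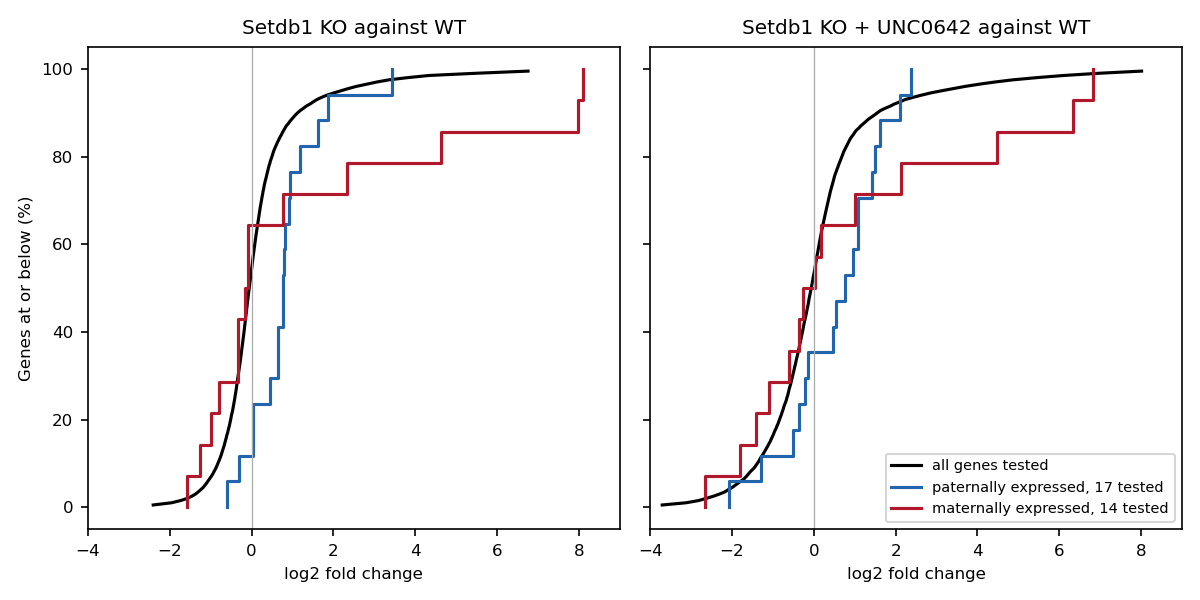
Cumulative share (y axis, percent) of genes at or below a log2 fold change over WT mESCs (x axis) in Setdb1 KO and combined-treatment mESCs, for all genes tested (black), 17 paternally expressed genes (blue) and 14 maternally expressed genes (red). The blue line lies to the right of the black one over most of the left panel, and the red line has a long right tail that ends in Asb4, Meg3 and Rian.

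UNC0642 alone gave no call among the imprinted genes. Against WT mESCs, 0 of 36 were called by edgeR with or without the block or by DESeq2 (0% of all features without and 0.166% with the block), with 0 at an unadjusted p under 0.05 without the block and 2 with it. Log2 fold changes lay between -1.53 (Slc22a18) and 1.56 (Meg3, whose 4 and 1 counts give a ratio of 3.20 with a counting interval of 0.316 to 157). UNC0642 on top of 4-OHT gave none either: against Setdb1 KO mESCs, 0 of 36 were called by edgeR or DESeq2 (0% of all features without and 0.129% with the block), with 1 at an unadjusted p under 0.05 without the block (Cdkn1c) and 5 with it. Cdkn1c was higher in both libraries of the combined condition (log2 fold change 1.36, SE 0.51, adjusted p = 0.935, with the block 0.273). The values of Rian and Meg3 in the 2 KO conditions overlapped (log2 differences of -1.15, SE 0.95, and -1.77, SE 1.09). The interaction of 4-OHT and UNC0642 was called for 0 imprinted genes in both fits, with 0 and 3 at an unadjusted p under 0.05, and for 0 features of all. If the shorter 4-OHT exposure in the sample label holds, it cannot be told apart from the addition of UNC0642 here; under the protocol text the exposures would not differ.

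Among UNC0642-treated cells, those with 4-OHT were compared with those without. Without the block 0 imprinted genes were called by edgeR (1.13% of all features higher, 0.0369% lower), with 10 at an unadjusted p under 0.05, while DESeq2 called 4 (Asb4, Cdkn1c, Meg3 and Rian). The share of all features was not computed for counts at an unadjusted p under 0.05 or by DESeq2, in any comparison. With the block, 5 were higher (Cdkn1c, Impact, Inpp5f, Kcnq1ot1 and Rian; 3.82% of all features) and 2 were lower (Phlda2 and Ppp1r9a; 0.831%). Meg3 (log2 fold change 4.64, SE 1.09, edgeR adjusted p = 0.0508) and Asb4 (2.76, SE 0.65, adjusted p = 0.0512) narrowly missed the threshold in this fit. Rian had a log2 fold change of 5.35 (SE 0.68, adjusted p = 0.00342), lost without UNC0642-treated replicate 2 (0.0647). Inpp5f was higher by 1.87 (SE 0.39, adjusted p = 0.0331), Cdkn1c by 2.14 (SE 0.44, adjusted p = 0.0294), Kcnq1ot1 by 1.60 (SE 0.25, adjusted p = 0.00841) and Impact by 1.24 (SE 0.27, adjusted p = 0.0370). Phlda2 fell by 1.84 (SE 0.41, adjusted p = 0.0404) and Ppp1r9a by 1.19 (SE 0.26, adjusted p = 0.0395). Each of these 6 calls was lost without either UNC0642-treated library or without combined-treatment replicate 1, and each but Inpp5f also without replicate 2. Impact was also lost without either Setdb1 KO library. The highest adjusted p in these fits was between 0.175 and 0.399.

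Of 22 genes of imprint maintenance and H3K9 or DNA methylation, all tested, 0 passed without the block in any comparison, with 4 and 3 at an unadjusted p under 0.05 in Setdb1 KO and combined-treatment mESCs. With the block, 2 were higher and 1 lower in Setdb1 KO mESCs (13.64% of the 22, beside 3.80% and 0.492% of all features). In combined-treatment mESCs, 2 were higher and 2 lower (18.18%, beside 9.98% and 7.19% of all features). Zfp445, a zinc finger protein that binds imprinted regions, and Atf7ip, the partner that stabilises SETDB1, rose in both. Zfp445 was at 53.7 ± 11 CPM in WT, 110 ± 37.7 with UNC0642 alone, 126 ± 47.1 in Setdb1 KO and 116 ± 57.3 in combined-treatment mESCs (block adjusted p = 0.0278 and 0.0223 over WT). Atf7ip was at 98.3 ± 5.84, 113 ± 18.8, 276 ± 91.9 and 264 ± 154 CPM in these conditions (0.0339 and 0.0223). Setdb1 fell in both (block adjusted p = 0.0164 and 0.00593), and Ehmt2, which encodes G9a, fell in combined-treatment mESCs (149.7 ± 71.7 to 61.1 ± 0.685 CPM, 0.0235). Zfp57 (110 ± 80.5 CPM in WT and 133 ± 44.4 in Setdb1 KO mESCs), Trim28 (848 ± 641 and 753 ± 65.6) and Dnmt1 (386 ± 27.2 and 268 ± 101) were not called.

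Of 46 other genes reported as imprinted or hosting an imprinted gene, 43 were in the files and 35 were tested. Against WT mESCs, 2 were higher and 2 lower in combined-treatment mESCs without the block (3.60% and 0.505% of all features). With the block, 4 were higher and 2 lower there, 17.14% of those tested (9.98% and 7.19% of all features). In Setdb1 KO mESCs, 1 was higher without the block (1.11% of all features). With it, 2 were higher and 1 lower (3.80% and 0.492%). Besides Calcr, Qpct, an enzyme that modifies the amino terminus of peptides, rose in combined-treatment mESCs (3.65 ± 0.874 to 30.6 ± 6.38 CPM, log2 fold change 3.07, SE 0.59, adjusted p = 0.0222). Atp10a, a lipid flippase near Ube3a, and Dhcr7, an enzyme of cholesterol synthesis, fell there. Atp10a went from 11.3 ± 4.51 to 1.12 ± 0.179 CPM (adjusted p = 0.0281) and Dhcr7 from 121 ± 8.45 to 26.1 ± 6.90 CPM (adjusted p = 0.0183). With the block, Pon2, near Asb4, and Herc3, which hosts Nap1l5, were also higher in that condition (adjusted p = 0.0285 and 0.00627). Qpct and Dhcr7 were then called in Setdb1 KO mESCs too (0.0490 and 0.0199). With UNC0642 alone, Qpct (10.35 ± 1.34 CPM) already lay above WT mESCs, and Dhcr7 (60.3 ± 1.17) and Atp10a (7.35 ± 0.835) below them, without a call. Calcr, Pon2 and Herc3 overlapped WT mESCs there.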

How the data were processed

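Poly(A) RNA libraries of the 8 mESC samples were grouped by their labels. The authors trimmed the reads with Trim Galore 0.3.7, mapped them to GRCm38 (mm10) with TopHat2 and counted them with TEtranscripts at default parameters. For each gene and repeat subfamily the deposited files hold counts that were neither filtered nor normalized; TEtranscripts can divide a read that fits several places among them. filterByExpr (at least 10 counts, total of at least 15) left 15313 genes and 932 subfamilies. These were scaled by TMM and fitted together by edgeR 4.0.16 (quasi-likelihood test, R 4.3.3, prior count 0.125), with 1 coefficient per condition, Benjamini-Hochberg adjustment within a comparison and a call at an adjusted p under 0.05; no fold minimum was set. The SE was computed from the log2 fold change and the F statistic. Replicate numbers were taken as pairs, since the replicate deviations correlated across genes in all 6 pairs of conditions (r 0.381 to 0.729, median 0.657), and values with the replicate block stand beside those without. The numbers pair the samples by this check only; the labels do not say that replicates were grown together. Alternatives were DESeq2 1.42.0, other normalizations, no filter, genes only, a 10-fold minimum and leaving out each library; the block with each library left out was added after the data were seen. The fits were also run on simulated counts with known changes. These changes were set in genes counted well in every condition, unlike Rian and Meg3 with their few counts in WT mESCs. Positions came from GENCODE M21. The members and gene lists were chosen with earlier results of these data known; genes called with or without the block are given by library, the others by mean and SD or range. Analyses used Python 3.11.15.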

Additional observations from a re-analysis of the deposited data

How the results depend on the processing

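No alternative reversed the direction of the 23 differences of imprinted genes called with or without the block (552 values). These differences were chosen for passing in at least 1 of those 2 fits, so a reversal was unlikely from the start. Block fits are also among the alternatives, so passing in them is no separate support. The replicate block raised the imprinted genes called from 2 to 6 in Setdb1 KO and from 2 to 10 in UNC0642-treated Setdb1 KO mESCs over WT, and from 0 to 7 in the same cells over UNC0642-treated mESCs, and changed no count in the other comparisons, which stayed at 0 in every alternative. In that order, DESeq2 gave 4, 7 and 4 on all 8 libraries and 3, 7 and 4 when limited to the 4 being compared. For DESeq2 and the further alternatives below, the share of all features called was not computed. Total counts normalization gave 0, 1 and 0 and shifted the median of all features by -0.07, -0.17 and -0.21. In Setdb1 KO mESCs, RLE normalization and genes only gave 1 each. Without an expression filter, 4 genes were called in UNC0642-treated Setdb1 KO mESCs over WT and 1 over UNC0642-treated mESCs. Leaving out 1 library gave 0 to 3, 0 to 3 and 0 to 1 genes; both WT comparisons fell to 0 without either WT library, and Setdb1 KO over WT also without Setdb1 KO replicate 2. The lone library left in a condition was then assumed to vary like the others. The cause of these changes was not tested. Total counts normalization lost Asb4 and Rian in Setdb1 KO mESCs and Rian in UNC0642-treated Setdb1 KO mESCs, and RLE normalization and genes only lost Asb4 in Setdb1 KO mESCs. With 2 libraries per condition and 0 to 3 counts of Rian and Meg3 per WT library, the size of their change is poorly known: the counting intervals cover neither the spread between replicates nor all of the range over the alternatives.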
